A study of Mus musculus with 8 samples.

Results

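The interferon-stimulated genes described here are a list of 37 mouse genes, chosen by name with earlier results of these data known. Of these, 34 had at least 1 probe whose accession matched them, among 20886 genes of the array that could be named through RefSeq. No accession matched Mx1, Mx2 or Oas1b. RNA was measured on 8 two-colour Agilent whole-genome arrays, 4 of RAW 264.7 macrophages and 4 of 3T3-L1 pre-adipocytes, a line of mouse embryonic fibroblasts. Each line had grown in transwell co-culture with the other, in which a porous insert keeps the cells apart while the medium is common, for 48 h. The methods describe separate set-ups for the lines, each harvested from the lower well with the other line in the insert and with other cell numbers, so set-up and cell line cannot be told apart. In each cell line 1 array was labelled cortisol (100 µM), 1 serotonin (100 µM), 1 cortisol-serotonin (100 µM each) and 1 no treatment (NT).

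Each array set the RNA of the cells, in Cy5, against a common reference in Cy3, and levels are given as log2 of Cy5 over Cy3. A value of 0 is the level of the reference and a difference of 1 is a 2-fold change. The methods describe the reference as pooled RNA of untreated cells of both types grown alone, while the sample labels describe it as an equal mixture of the RNA of all samples. There was 1 array per condition, so no treatment had a replicate. Slide coincided with cell line and cannot be told apart from it, and each treatment held the same position on both slides.

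Interferons bind receptors that act through JAK kinases on transcription factors, among them STAT2 and IRF9, which take part in binding the interferon-stimulated response element (ISRE). Another motif of these promoters is the gamma-activated site (GAS). The genes switched on encode proteins that block viral translation and entry, degrade viral RNA, sense foreign RNA, attach the small protein ISG15 to others, and process antigens. Many of these genes are kept at a low constant level in resting cells by weak interferon signalling. Macrophages are known for strong interferon responses, and fibroblasts also respond.

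Promoter sequence was taken from RefSeq (GRCm38.p6) as windows of 250 bases before and 50 bases after each gene's start, and 29 of the 37 genes were in that table. The ISRE core, 2 GAAA blocks with 2 bases of any kind between them, searched on both strands, was in 14 of the 29 windows (48.3%), against 3.99% of 27025 genes in the table. The GAS core TTCNNNGAA, which is its own reverse complement, was in 8 of 29 (27.6%), against 9.55% of all genes. A match is a description of letters in this window and not a bound site.

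The following upstream stretches are those of members whose values are described below, with the matched motif in capitals. The first 5 hold ISRE cores and the last 2 hold a GAS core.
Ifit1, chr19:34640764-34640843, plus strand: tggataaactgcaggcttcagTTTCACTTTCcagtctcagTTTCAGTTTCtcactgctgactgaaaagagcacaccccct
Ifit3, chr19:34583367-34583446, plus strand: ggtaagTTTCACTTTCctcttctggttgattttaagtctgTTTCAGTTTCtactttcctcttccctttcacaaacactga
Rsad2, chr12:26456533-26456612, minus strand: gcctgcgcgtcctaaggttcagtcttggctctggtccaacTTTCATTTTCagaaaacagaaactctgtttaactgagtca
Isg15, chr4:156200845-156200924, minus strand: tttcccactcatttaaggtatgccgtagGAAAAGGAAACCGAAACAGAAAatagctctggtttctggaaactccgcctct
Gbp2, chr3:142620564-142620643, plus strand: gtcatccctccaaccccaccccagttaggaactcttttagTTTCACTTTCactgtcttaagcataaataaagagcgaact
Irf1, chr11:53769884-53769963, plus strand: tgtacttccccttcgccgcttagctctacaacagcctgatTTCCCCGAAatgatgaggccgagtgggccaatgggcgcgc
Psmb8, chr17:34198058-34198137, plus strand: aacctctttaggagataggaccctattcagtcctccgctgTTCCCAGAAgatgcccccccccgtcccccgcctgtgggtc

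Ifit1 and Ifit3 each held 2 ISRE cores. In Isg15 the 3 cores overlapped in an unbroken run. No match to either core lay in the windows of Oasl1, Oasl2, Xaf1, Tap1 or Cmpk2, which says only that these letters were not in this window.

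The cell type labels were checked first. All 9 macrophage markers that could be tested were higher in RAW 264.7 cells (median log2 difference 4.43), and all 6 pre-adipocyte and fibroblast markers were lower (median -6.17). RAW 264.7 arrays had a median spot signal in Cy5 of 51 to 103, against 62 to 79 for 3T3-L1 arrays, with a local background of 26.5 to 28. The highest of these, 103, belonged to the RAW 264.7 array labelled serotonin, and the other RAW 264.7 arrays read 51 to 61. Of the fibroblast markers 9 of 12 were above background on at least 1 array of RAW 264.7 cells, and of the macrophage markers 9 of 12 on at least 1 array of 3T3-L1 cells. The median of 10 listed glucocorticoid-induced genes lay under NT on the arrays labelled cortisol and above it on those labelled serotonin. In RAW 264.7 cells, where 9 were measured, their median difference from NT was -0.29 on the array labelled cortisol, 0.33 on serotonin and 0.01 on cortisol-serotonin, with 0, 7 and 5 of the 9 above NT. In 3T3-L1 cells it was -0.34, 0.59 and 0.70 in the same order, with 3 of 10 genes above NT on cortisol, 8 of 10 on serotonin and 7 of 10 on cortisol-serotonin. Whether the cortisol and serotonin labels were exchanged was not tested, so each treated array is named by its label, and an effect of cortisol or serotonin below is that of the label.

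Of the 37 genes, 24 were above background in both channels on all 8 arrays and entered the comparison of the cell lines. A further 3 genes, Ifit1, Oasl2 and Cmpk2, were above background in 3T3-L1 cells and on no array of RAW 264.7 cells. Rsad2, Ifih1, Ifi44 and Gbp3 were above background on all arrays of 3T3-L1 cells and on only some of RAW 264.7 cells. Isg15 and Oas3 were above background in the cells but left out of the fit, Isg15 for a spot marked as an outlier and Oas3 for a dim reference spot. Oas1g, a member of the oligoadenylate synthetase (OAS) family, was not above background on any array.

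RNA of most interferon-stimulated genes was lower in the macrophages than in the pre-adipocytes. By limma with Benjamini-Hochberg adjustment over 10995 genes, 21 of the 24 genes were lower in RAW 264.7 cells, against 38.5% of all genes tested, and 2 were higher, against 35.9%. Their median log2 difference was -1.15, while that of all genes was -0.04. The ranges of the arrays did not overlap between the cell lines for 22 of the 24 genes, against 70.2% of all genes, and Ifitm3 and Trim25 were the exceptions. Each array measured the bulk RNA of a culture, so fewer cells that express a gene and less RNA per cell cannot be told apart. The 4 arrays of a line carried different treatment labels, so the error is the spread of the line difference over treatments and not that of replicate cultures.

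**Figure D1:**
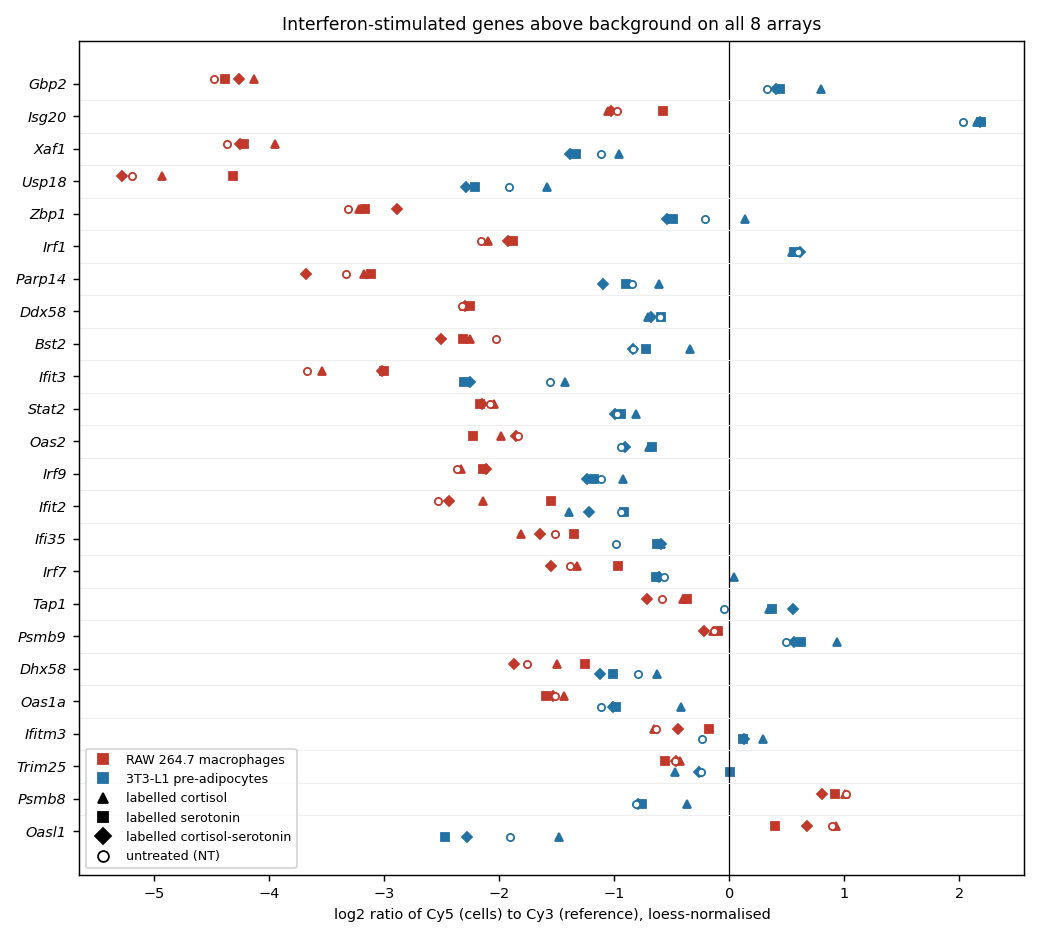
Log2 ratio of Cy5 (cells) to Cy3 (reference) for the 24 genes above background on all 8 arrays, 1 point per array, red for RAW 264.7 macrophages and blue for 3T3-L1 pre-adipocytes, with the marker shape giving the treatment label. Red points lie left of blue ones in most rows, and Psmb8 and Oasl1 at the bottom run the other way.

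Antiviral effectors made the largest group, and all 10 of those tested fell in RAW 264.7 cells, by a median of 2.03 on the log2 scale. Gbp2, an interferon-induced GTPase of the guanylate-binding family, differed most. Its log2 ratio was -4.13 on the RAW 264.7 array labelled cortisol, -4.38 on serotonin, -4.26 on cortisol-serotonin and -4.47 on NT, against 0.80, 0.44, 0.41 and 0.33 on the matching arrays of 3T3-L1 cells. Every RAW 264.7 array was thus far below the reference and every 3T3-L1 array above it, a difference of -4.80 ± 0.11 (SE, 4 arrays a line, limma adjusted p = 1.2e-10), or 27.9-fold lower. The lowest Cy5 signal of its probe on any array was 71, against a local background of 28 on RAW 264.7 arrays. The size of this fold is therefore less certain than the SE shows.

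Isg20, an exonuclease that degrades single-stranded RNA, was the gene with the highest ratios in 3T3-L1 cells among the 24. It read -1.06, -0.58, -1.03 and -0.98 in RAW 264.7 cells labelled cortisol, serotonin, cortisol-serotonin and NT, against 2.15, 2.19, 2.18 and 2.03 in 3T3-L1 cells. The difference was -3.05 ± 0.12 (SE, limma adjusted p = 3.2e-09), with both groups of arrays tight and far apart.

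Xaf1, a pro-apoptotic partner of the apoptosis inhibitor XIAP, was below the reference in both lines. Its ratios were -3.95, -4.21, -4.25 and -4.37 in RAW 264.7 cells labelled cortisol, serotonin, cortisol-serotonin and NT, against -0.96, -1.33, -1.38 and -1.11 in 3T3-L1 cells. It fell by 3.00 on the log2 scale (SE 0.11, limma adjusted p = 2.7e-09), without overlap. Zbp1, a sensor of left-handed nucleic acids, read -3.21, -3.16, -2.89 and -3.32 in RAW 264.7 cells, against 0.14, -0.49, -0.54 and -0.21 in 3T3-L1 cells, in the same order of labels. The difference for Zbp1 was -2.87 ± 0.16 (SE, limma adjusted p = 5.5e-08). A second, dimmer probe of Zbp1 read -2.77 to -1.10 in RAW 264.7 cells, where 1 array was above background, against -0.97 to -0.16 in 3T3-L1 cells. Parp14, an ADP-ribosyltransferase, fell by 2.46, and Bst2, the tetherin that holds budding virus at the cell surface, by 1.59, both chosen for mention after their values were seen, as were the other genes outside the rule for array values. Ifit3 and Ifit2, of the family that binds foreign RNA and blocks its translation, fell by 1.42 and 1.05. Ifi35 fell by 0.88 and Ifitm3, which hinders viral fusion, by 0.55. The lowest Cy5 signals of Xaf1 (66), Parp14 (77.5) and Ifit2 (67) were also near background, so the sizes of their falls are likewise less certain.

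The ISG15 system tags proteins with ISG15. Usp18, the protease that removes ISG15 and also restrains the type I interferon receptor, had the lowest mean ratio of the 24 genes in RAW 264.7 cells. It read -4.93, -4.32, -5.27 and -5.19 in RAW 264.7 cells labelled cortisol, serotonin, cortisol-serotonin and NT, against -1.59, -2.21, -2.29 and -1.91 in 3T3-L1 cells. The difference was -2.93 ± 0.18 (SE, limma adjusted p = 1.5e-07), and the ranges stayed apart. Trim25, a ubiquitin ligase that activates RIG-I, differed by -0.24 ± 0.12 (SE, limma adjusted p = 0.102) and did not pass the test.

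The probe of Isg15 that was above background read -3.78, -3.90, -4.04 and -3.68 in RAW 264.7 cells labelled cortisol, serotonin, cortisol-serotonin and NT. In 3T3-L1 cells it read -0.87, -1.54 and -1.23 on the arrays labelled cortisol, cortisol-serotonin and NT, the outlier spot being on serotonin. A fit that dropped the 3T3-L1 array labelled serotonin gave a difference of -2.62 ± 0.15 (SE, limma adjusted p = 1.9e-08). With its partner gone, the RAW 264.7 array labelled serotonin added nothing to this difference, which rests on the other labels. A second, dimmer probe of Isg15 read -2.47 to -0.84 in RAW 264.7 cells, where 1 of 4 arrays was above background, against -1.33 to -0.81 in 3T3-L1 cells. With 3 of its RAW 264.7 values not above background, the size of its gap cannot be set against that of the brighter probe.

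The transcription factors of the pathway were all lower in RAW 264.7 cells, 4 of 4. Irf1, which activates many interferon-stimulated genes, averaged -2.01 in RAW 264.7 cells and 0.58 in 3T3-L1 cells, a difference of -2.59 ± 0.11 (SE, 4 arrays a line, limma adjusted p = 6.1e-09). Stat2 and Irf9, both parts of the complex that binds the ISRE, fell by 1.18 and 1.13. Irf7, which drives type I interferon genes, fell by 0.86. The RNA sensors Ddx58 (RIG-I) and Dhx58 (LGP2) fell by 1.65 and 0.71, and Ifih1 (MDA5), tested without the RAW 264.7 array labelled serotonin on which it was dim, by 0.78 (limma adjusted p = 0.00030). A second, dimmer probe of Ddx58 read -0.66 to -0.28 in RAW 264.7 cells, on no array above background, against -0.08 to 0.19 in 3T3-L1 cells.

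The OAS family, which makes the short oligoadenylates that activate RNase L, was divided. Oas2 and Oas1a fell by 1.17 and 0.63. Oas3, tested without the 3T3-L1 array labelled cortisol-serotonin, differed by 0.25 (limma adjusted p = 0.135). Oasl1, an OAS-like protein without synthetase activity that in mouse restrains translation of Irf7, was higher in RAW 264.7 cells. It read 0.92, 0.39, 0.68 and 0.89 in RAW 264.7 cells labelled cortisol, serotonin, cortisol-serotonin and NT, against -1.48, -2.47, -2.28 and -1.90 in 3T3-L1 cells. This difference of 2.75 ± 0.12 (SE, limma adjusted p = 9.0e-09), or 6.75-fold, was the larger of the only 2 rises among the 24.

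The other rise was that of Psmb8, a catalytic subunit of the immunoproteasome. Its ratios were 1.01, 0.92, 0.81 and 1.01 in RAW 264.7 cells labelled cortisol, serotonin, cortisol-serotonin and NT, against -0.37, -0.76, -0.79 and -0.81 in 3T3-L1 cells, a difference of 1.62 ± 0.11 (SE, limma adjusted p = 3.5e-07) or 3.07-fold. Psmb9, another catalytic subunit of the immunoproteasome, went the opposite way and fell by 0.80. Tap1, which carries peptides into the endoplasmic reticulum and whose gene neighbours these 2, fell by 0.82. The 3 antigen processing genes therefore did not move as 1 group.

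**Figure D2:**
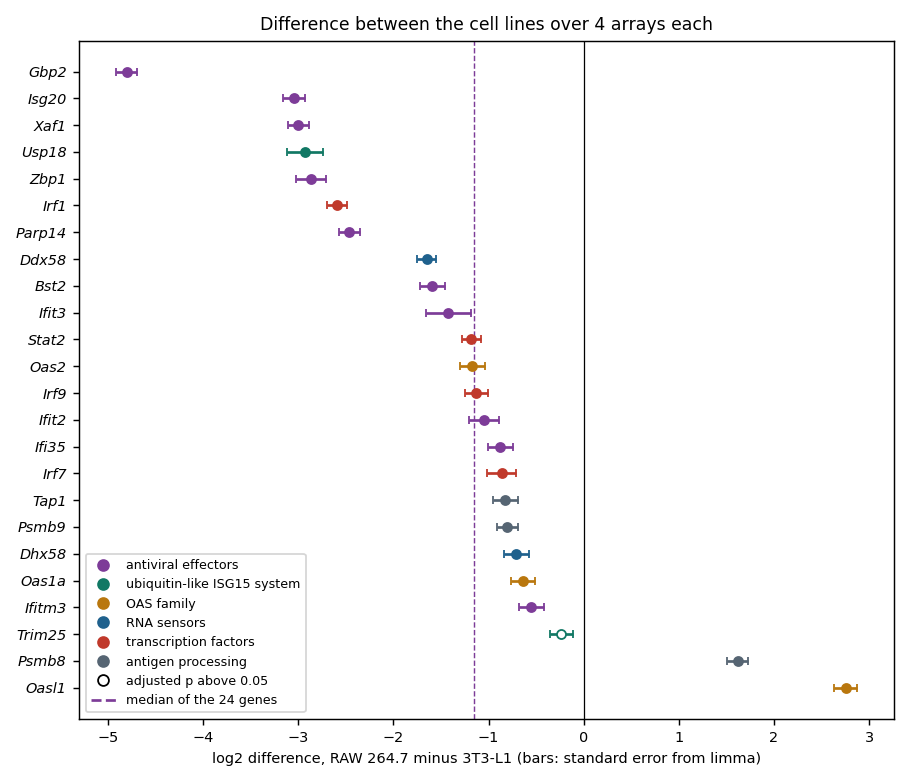
Log2 difference between RAW 264.7 and 3T3-L1 cells for the 24 genes, coloured by role, with the standard error from limma over 8 arrays as bars; open points did not pass an adjusted p of 0.05. The dashed line marks the median of -1.15, Gbp2 lies farthest left at -4.80 and Oasl1 farthest right at 2.75.

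Genes not above background in RAW 264.7 cells have only a bound there. It sets the mean Cy5 signal of 3T3-L1 cells against the mean over RAW 264.7 arrays of the higher of the gene's own signal and the lowest signal called above background. Ifit1, which binds viral RNA that lacks host cap methylation, read -4.44, -4.26, -5.78 and -5.13 in RAW 264.7 cells labelled cortisol, serotonin, cortisol-serotonin and NT, none of them above background, against -2.51, -2.89, -3.01 and -1.95 in 3T3-L1 cells. It was at least 4.47-fold lower in RAW 264.7 cells in Cy5 signal. Oasl2, an OAS-like protein that also carries ubiquitin-like domains, read -4.13, -4.17, -4.67 and -4.75 in RAW 264.7 cells, against -1.28, -1.43, -1.70 and -1.37 in 3T3-L1 cells, and was at least 5.68-fold lower. Both genes were far below the reference in both lines.

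Cmpk2, a mitochondrial nucleotide kinase encoded beside Rsad2, had 2 probes with bounds of at least 1.84-fold and at least 1.15-fold lower in RAW 264.7 cells. The brighter probe read -1.56, -2.24, -2.31 and -2.20 in RAW 264.7 cells labelled cortisol, serotonin, cortisol-serotonin and NT, against -0.87, -0.96, -1.24 and -0.50 in 3T3-L1 cells. Its dimmer probe read -1.21 to -0.98 in RAW 264.7 cells and -0.85 to -0.31 in 3T3-L1 cells. Gbp3, another guanylate-binding GTPase, above background on 1 array of RAW 264.7 cells, read -5.16 to -4.21 there and -1.16 to -0.99 in 3T3-L1 cells. Ifi44 read -1.85 to 0.07 in RAW 264.7 cells, also above background on 1 array, and -1.21 to -0.75 in 3T3-L1 cells, so its ranges overlapped.

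The difference between the lines was also read within each treatment label. On the arrays labelled cortisol 17 of 24 genes were at least 2-fold lower in RAW 264.7 cells (15.7% of all genes), on serotonin 11 (17.0%), on cortisol-serotonin 13 (17.7%) and on NT 13 (16.8%). Oasl1 and Psmb8 were the only genes of the 24 at least 2-fold higher in RAW 264.7 cells, in each of the 4 pairs. The share of all genes at least 2-fold higher was not counted. The serotonin pair, which holds the RAW 264.7 array with the brightest Cy5 signal, had a median of -0.85, the smallest of the 4, and the cortisol pair one of -1.32, the largest.

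Other genes of the pathway were counted from lists, beside the 38.5% of all genes that were lower and the 35.9% that were higher in RAW 264.7 cells. Of the 24 other interferon-induced genes tested, 15 were lower and 4 higher in RAW 264.7 cells, with a median of -0.97. The largest differences in that list were those of Ifi204 (-3.61), Igtp (-3.33) and Ccl5 (-2.92). Interferon receptor subunits were lower in 3 of 5, with Ifnar2 at -1.29, Ifngr1 at -1.19 and Ifnar1 at -1.04, and higher in none. Of the JAK-STAT signalling genes 2 of 4 were lower (Jak1 -1.85, Stat3 -1.66) and Tyk2 was higher by 1.59.

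Of the genes that sense nucleic acids and induce interferon, 7 of 9 were higher and none was lower in RAW 264.7 cells. Their median was 0.64, and the macrophage factors Irf5 and Irf8 led with 4.31 and 3.04, followed by the DNA sensor Cgas with 2.24. Of the genes that restrain signalling 3 of 7 were lower and 2 higher, shares near those of all genes, and the phosphatase Ptpn6 had the largest difference at 5.57. Interferon genes themselves had no probe that passed on all 8 arrays; of the 9 with a probe, 4 were above background on at least 1 array of RAW 264.7 cells and 5 on at least 1 of 3T3-L1 cells.

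The ratios to the reference were also read. The ratio was below the reference on all 8 arrays for 13 of the 24 genes, against 15.6% of all genes. The mean of the 8 linear ratios was under 1 for 21 of the 24 genes, against 48.9% of all genes. Over the 24 genes the median of that mean was 0.464, with Usp18 lowest at 0.144 and Isg20 highest at 2.47, while over all genes the median was 1.01. Within a line, the mean ratio was above 1 for Psmb8 (1.92) and Oasl1 (1.67) in RAW 264.7 cells, and for Isg20 (4.40), Psmb9 (1.58), Irf1 (1.5), Gbp2 (1.42), Tap1 (1.25) and Ifitm3 (1.06) in 3T3-L1 cells.

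Ifit3 averaged 0.192, Xaf1 0.247, Parp14 0.327 and Irf9 0.338 on this measure. Of the other interferon-induced genes, 12 of 24 were below the reference on all 8 arrays and their median mean ratio was 0.66. All arrays ran in 1 dye orientation, so a difference between dyes at a probe is part of every ratio to the reference, and its part in this result was not tested. Such a term cancels in the comparisons between arrays.

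**Figure D3:**
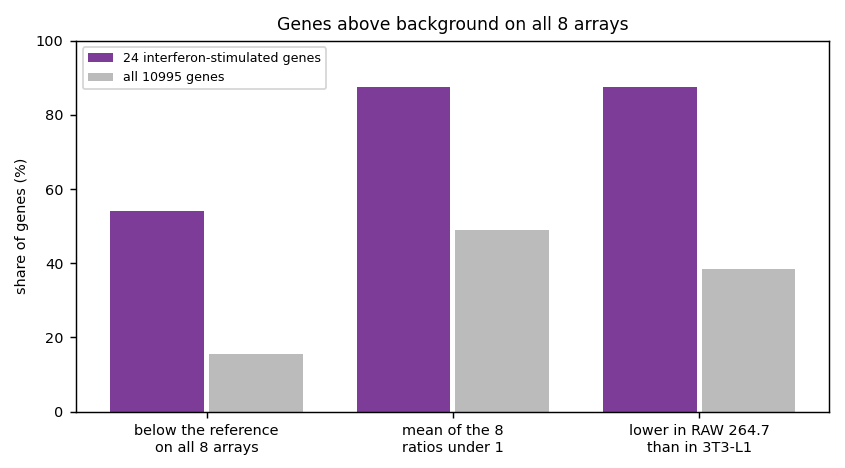
Share of genes, in percent, that were below the reference on all 8 arrays, that had a mean of the 8 linear ratios under 1, and that were lower in RAW 264.7 than in 3T3-L1 cells; purple bars are the 24 interferon-stimulated genes and grey bars all 10995 genes tested. The purple bars stand at 54.2%, 87.5% and 87.5%, and the grey bars at 15.6%, 48.9% and 38.5%.

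The next question was whether cortisol, serotonin or both changed these genes in co-cultured cells. Each treated array was set against the NT array of its own cell line, which the 3 comparisons of a line share. With 1 array per condition this difference has no test. The error given is that which Feature Extraction assigns to the spots. Few interferon-stimulated genes reached 2-fold, namely Rsad2 in both lines and Ifit1 in 3T3-L1 cells.

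Rsad2 encodes viperin, which makes a chain-terminating nucleotide and blocks many viruses. In RAW 264.7 cells it read -3.95 on the array labelled cortisol, where it was not above background, -3.17 on serotonin and -4.03 on cortisol-serotonin, against -4.42 on NT. There the difference on serotonin was 1.25 ± 0.72 and that on cortisol-serotonin 0.40 ± 0.82 (Feature Extraction error). In 3T3-L1 cells its ratio was -0.86 on the array labelled cortisol, -1.62 on serotonin and -2.12 on cortisol-serotonin, against -1.02 on NT. The differences from NT were 0.16 ± 0.31, -0.60 ± 0.34 and -1.10 ± 0.37 (Feature Extraction error), so that only the last reached 2-fold. Between the cell lines Rsad2 differed by -2.29 ± 0.31 in a fit without the RAW 264.7 array labelled cortisol (SE, limma adjusted p = 0.00032).

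Ifit1 in 3T3-L1 cells was lower than NT on all 3 treated arrays. Its difference was -0.56 ± 0.41 on cortisol, -0.95 ± 0.44 on serotonin and -1.07 ± 0.47 on cortisol-serotonin (Feature Extraction error), the last being 2.10-fold. When arrays were centred on their median in place of loess, Ifit1 on cortisol-serotonin turned to 0.06 and Rsad2 moved to -0.03, while the median of all genes moved to 1.00. Relative to that median their values were -0.94 and -1.04. In 3T3-L1 cells 280 genes, whose mean ratio over both other treated arrays was under -2, had a median of -0.51 on serotonin (remaining genes 0.01). On cortisol-serotonin 284 such genes had -0.39 (remaining genes 0.03). Ifit1 was the 1 interferon-stimulated gene in each of these sets. On cortisol 307 such genes had -0.12 (remaining genes 0.01), and the 4 interferon-stimulated genes among them had 0.23. The part of these sets in the values of Ifit1 was not tested.

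In RAW 264.7 cells the medians of the genes were 0.04 on cortisol, 0.15 on serotonin and -0.06 on cortisol-serotonin, over 27, 27 and 28 genes. Their median Feature Extraction errors were 0.41, 0.40 and 0.40 in the same order. Genes above NT numbered 18 of 27 (56.2% of all genes), 18 of 27 (41.3%) and 11 of 28 (48.8%). At 2-fold in either direction there were 0 on cortisol (0.083% of all genes), 1 on serotonin, Rsad2 (0.914%), and 0 on cortisol-serotonin (0.254%). On serotonin Ifit2 (0.98 ± 0.48), Usp18 (0.87 ± 0.79), Ifit3 (0.67 ± 0.55) and Dhx58 (0.50 ± 0.39) followed. Oas3 (-0.52 ± 0.40) and Oasl1 (-0.50 ± 0.31) were lowest on it (Feature Extraction error).

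That array also carried the brightest Cy5 signal. On it 431 genes, whose mean ratio over both other treated arrays of that line was under -2, were higher than NT by a median of 0.28. The remaining 11633 genes had -0.05, and the 13 interferon-stimulated genes among the 431 had 0.15. Fibroblast markers had a median of 0.73 over 8 genes there (7 of 8 higher) and macrophage markers had -0.24 over 11. On cortisol these medians were 0.25 over 9 fibroblast markers and -0.11 over 11 macrophage markers. On cortisol-serotonin they were 0.39 over 6 and -0.38 over 11. Their part in the values of Rsad2, Ifit2, Usp18 and Ifit3 was not tested.

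In 3T3-L1 cells the array labelled cortisol had 27 of 33 measured genes above NT, against 51.2% of all genes, with a median of 0.21 and none at 2-fold (1.65% of all genes in either direction). The higher values were those of Oas1a (0.69), Irf7 (0.60), Ifitm3 (0.54) and Bst2 (0.50), while Ifit1 and Ifit2 (-0.45) were lowest. The array labelled serotonin had 16 of 33 above NT (51.1% of all genes), with a median of -0.02 and none at 2-fold (1.24%). On it Ifit3 (-0.75) and Oasl1 (-0.56) were among the lowest and Tap1 (0.42), Ifitm3 (0.36) and Ifi35 (0.35) the highest.

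The array labelled cortisol-serotonin had 11 of 32 genes above NT (53.3% of all genes), with a median of -0.08. On it Ifit1 and Rsad2 were 2-fold lower and none was 2-fold higher, 2 of 32 against 1.43% of all genes in either direction. Cmpk2, at -0.64, and Ifit3, at -0.69, came next, and Tap1 was highest at 0.61. The median Feature Extraction error over the genes was 0.31 on cortisol, 0.31 on serotonin and 0.32 on cortisol-serotonin. Macrophage markers, of which 9 were above background in 3T3-L1 cells, had medians of -0.11 on cortisol, -0.46 on serotonin and -0.36 on cortisol-serotonin against NT. They ranged from -0.42 to 0.62, from -0.87 to -0.16 and from -0.58 to 0.08 on these arrays. Their part in the result was not tested.

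**Figure D4:**
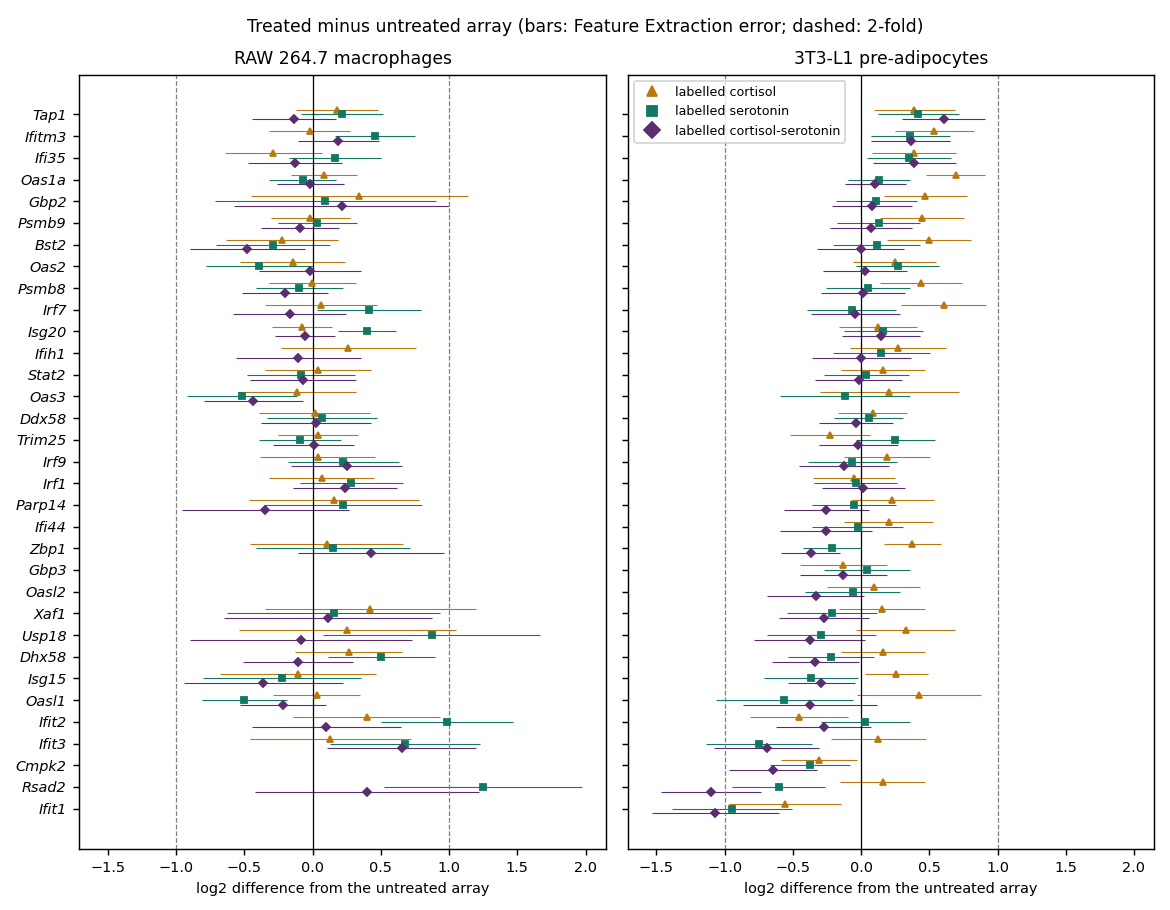
Log2 difference of each treated array from the NT array of the same cell line, with RAW 264.7 macrophages in the left panel and 3T3-L1 pre-adipocytes in the right, for each gene above background on the arrays compared; bars are the Feature Extraction error and dashed lines mark 2-fold. Most bars cross or come near 0, and Rsad2 and Ifit1 lie at the lower end in 3T3-L1 cells, while Rsad2 reaches 1.25 in RAW 264.7 cells labelled serotonin.

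A model with effects of cortisol and of serotonin within each line, added without an interaction, used 2 arrays with and 2 without each label per line. None of the 24 genes passed a limma adjusted p of 0.05 for either label in either line. Of all genes 0.109% passed for serotonin in 3T3-L1 cells and 0% in the other 3. At an unadjusted p under 0.05 there were 2 of 24 for serotonin and 0 for cortisol in RAW 264.7 cells, and 3 for serotonin and 0 for cortisol in 3T3-L1 cells. The shares of all genes were 3.37% and 2.59% in RAW 264.7 cells and 13.3% and 2.8% in 3T3-L1 cells, in the same order. The lowest adjusted p was that of Ifit3 for serotonin in 3T3-L1 cells, -0.78 ± 0.14 (SE, limma adjusted p = 0.117).

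Ifit3 was -3.54, -3.00, -3.02 and -3.67 in RAW 264.7 cells labelled cortisol, serotonin, cortisol-serotonin and NT, against -1.43, -2.30, -2.25 and -1.56 in 3T3-L1 cells. Both arrays that carried a serotonin label were thus the higher ones in RAW 264.7 cells and the lower ones in 3T3-L1 cells. The difference of the serotonin effect between the lines was 1.38 ± 0.20 (SE, limma adjusted p = 0.204), which did not pass.

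A fit of the 4 arrays of 3T3-L1 cells alone, with 1 residual degree of freedom, called Ifit1, Ifit3 and Rsad2 lower with serotonin, 3 of 32 genes against 2.59% of all genes, and so gave a count other than 0.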

How the data were processed

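RNA of 8 samples was compared with a common reference on 2 slides. The authors read the scans with Agilent Feature Extraction (10.5.1.1 by the labels; the methods name another version), and the deposited files hold median spot and background intensity for each channel, and dye-normalised processed signal intensities. They also hold the authors' log10 ratio of Cy5 to Cy3 with its error, and a deposited series table repeats that log10 ratio within 0.005, with a median of 0 per array. Its p-values compare a sample with the reference and were not used.

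Median signals were background-corrected (normexp, offset 50) and log2 ratios loess-normalised within each array (limma 3.58.1, R 4.3.3); control and outlier spots were left out. Spots of a probe were averaged. Probes were named by accession through a RefSeq table (GRCm38.p6, names only), and 27508 of 39429 probes (69.8%) matched. The probes of a gene that were above background in Cy5 and in Cy3 on each array of a comparison were averaged. The model of the cell lines had terms for treatment and line, with 3 residual degrees of freedom, and that of the hormones had 2. The models were run on simulated data with independent noise, which checked the sign and size of their estimates. Recovery of a set share of changes was required only of the model of the cell lines. No rate of missed changes is given for the hormone model. Array values were printed for genes 2-fold changed on a treated array, for the 5 largest line differences in each direction (only 2 were higher), and for genes above background in 1 line only. The members and lists were chosen with earlier results of these data known. Nothing says whether arrays of 1 label came from separate cultures, so p-values measure only the spread between these arrays, and their number limits the precision. No spot was saturated (0 on each array).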

Additional observations from a re-analysis of the deposited data

Results flagged for a closer look

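The 24 genes were screened for each label. In 6 genes both pairs of arrays that differ by a label moved one way in RAW 264.7 cells. In 3T3-L1 cells both pairs of these genes moved the opposite way. How often all genes show this pattern was not counted, so the number 6 is not a result about these genes. The model's own estimate of each difference, RAW 264.7 minus 3T3-L1, is given with its limma adjusted p, and none passed 0.05. For the serotonin label the difference was 1.38 for Ifit3 (adjusted p = 0.204), 0.718 for Zbp1 (adjusted p = 0.590), 0.409 for Irf9 (adjusted p = 0.694) and -0.290 for Trim25 (adjusted p = 0.758). For the cortisol label it was -0.505 for Ifi35, -0.418 for Ifitm3 and 0.318 for Trim25 (adjusted p = 0.978 for each).

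The pairs behind the Ifit3 value were 0.67 and 0.52 in RAW 264.7 cells, against -0.75 and -0.82 in 3T3-L1 cells. Those behind Zbp1 were 0.15 and 0.32 in RAW 264.7 cells, against -0.28 and -0.68 in 3T3-L1 cells. Ifit3 and Zbp1 had unadjusted p-values of 0.00015 and 0.013 by limma.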

How the results depend on the processing

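The model of the cell lines pairs their arrays by treatment label, and without those terms it called the same counts, 21 lower and 2 higher. No paired analysis was possible by replicate number because the labels carry none, each condition having 1 array. Median centring in place of loess lowered the count of genes lower in RAW 264.7 cells to 15 of 24 (17.7% of all genes lower and 27.4% higher). Dhx58, Ifi35, Ifitm3, Oas1a, Psmb9 and Tap1 then no longer passed. Cy5 alone gave 17 of 24 (27.9% of all genes lower and 35.6% higher), without Ifitm3, Irf7, Oas1a and Tap1. The count of genes higher in RAW 264.7 cells was 2 under each alternative. Without the filter on dim probes 27 of 34 were lower (19.9% of all genes). The median relative to all genes, -1.11, was -1.30 from Feature Extraction ratios and -0.914 from Cy5 alone. Trim25 turned to 0.14 in Cy5 alone and passed at -0.33 without the RAW 264.7 or the 3T3-L1 array labelled cortisol. Leaving out each array in turn gave 21 to 23 genes lower of 24 or 25 tested (34.3% to 37.5% of all genes). It gave 2 higher (33.5% to 34.3% of all genes) and a relative median of -1.16 to -1.08. An array whose partner of the same label was left out adds nothing to a gene's line difference in this model. Dropping either array of a pair is thus the same check for a gene with the same probes. Without the dim filter 21 of 34 genes were below the reference on all 8 arrays (8.02% of all genes), an alternative chosen after seeing the data.

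Counts of 2-fold changes moved most under median centring, which shifted the median of all genes by 0.60, 1.08 and 1.00 on the 3T3-L1 arrays labelled cortisol, serotonin and cortisol-serotonin. It gave 10, 17 and 14 members there, all higher, against 18.8%, 56.1% and 50.3% of all genes in either direction, and turned Ifit1 on cortisol-serotonin to 0.058. Feature Extraction ratios gave 1 higher on cortisol (Oasl1, 4.4% of all genes) and 1 lower on serotonin (Ifit1, 2.75%). On cortisol-serotonin they gave 3 lower (Cmpk2, Ifit1 and Rsad2, 2.71%). Cy5 alone gave 2 lower on serotonin (3.3%) and 1 lower on cortisol-serotonin, Ifit1 (4.6%), with Rsad2 short of 2-fold at -0.86. In RAW 264.7 cells labelled serotonin the count was 2 higher without background correction (1.06% of all genes), 2 higher with median centring (0.921%), and 3 with Feature Extraction ratios, Ifit2 and Rsad2 higher and Oas3 lower (3.51%). In Cy5 alone it was 2 lower, Oasl1 and Psmb8, with none higher and Rsad2 at 0.96 (8.27%). Without the dim filter it was 2 higher (1.23%), and 1 higher on cortisol-serotonin (0.388%). Among genes above background on all 8 arrays, chosen after seeing the data, the count was 0 on RAW 264.7 serotonin (0.682%) and 0 on 3T3-L1 cortisol-serotonin (1.08%). The serotonin effect in 3T3-L1 cells called 8 of the 24 genes under median centring (4618 of all 10995 genes). It called 3 of 32 in the fit of 3T3-L1 cells alone (336 of 12962). With each RAW 264.7 array left out in turn it called 1 gene, Ifit3 or Rsad2, while 123 to 255 of 11005 to 11455 genes passed. In the line that loses an array a label then has 1 array on 1 side. Counts that rest on that line are not given. Apart from the centring shift, the cause was not tested.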
